A study of Mus musculus with 23 samples.

Results

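Dusp28, Tspan31, Vamp3, Pcyt2, Med18 and Bloc1s3 are 6 mouse genes chosen by measured values, because the heat response of their transcripts was higher in embryos without p53 than in wildtype or heterozygous embryos. They were found by gene symbol in the probe table of the arrays. Each had 1 probe, and all 6 probes were among the 21979 tested of 36227 probes, with a value on every array. They are 6 of the 12651 genes with a tested probe. They were selected on the differences between the heat responses of the genotypes. Heat responses, control differences, heat differences and their combinations are therefore given as a description with standard errors and no test.

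The embryos were wildtype (p53 +/+), heterozygous (p53 +/-) or null (p53 -/-) at day 8.5 and came from crosses of p53 heterozygous mice. Before pooling, embryos were kept for 10 minutes at 38 °C, the control bath, or at 43 °C, the heat bath, and 3 to 7 whole embryos of 1 genotype and bath were pooled per array. There were 4 pools, A to D, in each group except null heat, for which 3 were analysed here. Pools of whole embryos cannot tell fewer cells of a type apart from less RNA per cell, and nothing names the litters, so p-values measure only the spread between these pools.

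p53 is a transcription factor that stabilises after DNA damage, heat and other stress and switches on genes of cell cycle arrest and cell death. In the embryo at this stage, loss of p53 is best known for its effect on neural tube closure. The 6 genes belong to no common pathway. Vamp3 (cellubrevin) is a vesicle SNARE of recycling endosomes, Bloc1s3 is a subunit of BLOC-1, a complex that sorts cargo to lysosome-related organelles, and Tspan31 is a tetraspanin, a protein with membrane-spanning segments that organises membrane domains. Pcyt2 makes CDP-ethanolamine, an intermediate of phosphatidylethanolamine synthesis. Med18 is a subunit of the head module of Mediator, which links transcription factors to RNA polymerase II. Dusp28 is an atypical dual specificity phosphatase.

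As the 6 transcripts, chosen for a shared pattern, moved together across pools, their promoters were set side by side. RefSeq windows of 250 bases before to 50 after the start (GRCm38.p6) were at hand for 4 of them. Med18 (chr4:132463872-132464171, minus strand), Bloc1s3 (chr7:19508321-19508620, minus strand) and Tspan31 (chr10:127070212-127070511, minus strand) are shown, the first 2 for their match to the heat shock element and the last for its CCAAT boxes, with all matches in capitals. All read 5′ to 3′ in the direction of the gene. The Tspan31 window lies wholly inside the gene as listed (chr10:127067287-127070972). Its CCAAT boxes are therefore not upstream of the outer end of that gene.
Med18: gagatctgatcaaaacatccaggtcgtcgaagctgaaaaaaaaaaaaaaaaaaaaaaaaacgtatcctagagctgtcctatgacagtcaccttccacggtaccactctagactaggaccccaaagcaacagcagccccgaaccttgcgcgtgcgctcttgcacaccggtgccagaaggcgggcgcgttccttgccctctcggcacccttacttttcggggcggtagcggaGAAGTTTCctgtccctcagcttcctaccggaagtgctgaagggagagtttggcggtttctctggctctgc
Bloc1s3: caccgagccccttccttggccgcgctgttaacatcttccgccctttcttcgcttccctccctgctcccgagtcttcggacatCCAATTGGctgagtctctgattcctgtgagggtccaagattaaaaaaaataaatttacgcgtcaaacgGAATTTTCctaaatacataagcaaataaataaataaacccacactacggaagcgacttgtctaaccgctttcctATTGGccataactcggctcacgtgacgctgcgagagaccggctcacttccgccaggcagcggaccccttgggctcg
Tspan31: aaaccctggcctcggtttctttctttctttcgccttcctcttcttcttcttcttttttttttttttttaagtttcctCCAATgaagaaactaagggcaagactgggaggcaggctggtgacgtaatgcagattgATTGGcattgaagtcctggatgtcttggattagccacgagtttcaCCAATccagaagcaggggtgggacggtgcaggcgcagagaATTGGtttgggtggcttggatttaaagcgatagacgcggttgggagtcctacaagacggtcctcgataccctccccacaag
The motifs searched on both strands were the heat shock element (TTCNNGAA or GAANNTTC), the CCAAT box (CCAAT or ATTGG) and the p53 decamer, the repeated unit of the p53 response element. The heat shock element occurred in 2 of the 4 windows, as GAAGTTTC in Med18 and GAATTTTC in Bloc1s3, and in 15.1% of all 32851 promoters of this length. A CCAAT box occurred in 3 of 4, with 4 matches in Tspan31, 3 in Bloc1s3, of which an overlapping pair, and 1 in Dusp28, against 37.4% of all promoters. No match to the p53 decamer was found in the 4, against 8.36% of all promoters. These matches are letters in a window and no sites of binding.

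The arrays behind these values had no scan date or batch in the tables used here. Control columns had 7576 to 11666 empty cells and heat columns none, so bath and array processing cannot be told apart. Ccng1, a p53 target used to check the labels, ran from 3.50 to 4.23 in wildtype control pools, from 2.20 to 2.96 in heterozygous and from 1.24 to 1.58 in null ones, with no overlap. After heat it ran from 9.50 to 14.3, from 6.32 to 7.71 and from 1.25 to 3.06, again without overlap, though the highest null heat pool exceeded the heterozygous controls. Cdkn1a, another p53 target, was at 1.25 to 4.70 in null heat against 1.05 to 1.45 in null control pools. Heterozygous pools were at 1.26 to 5.42 in the control and 1.95 to 5.54 after heat, and wildtype pools at 4.46 to 6.12 and 9.95 to 34.4. For Cdkn1a the null heat pools thus overlapped the heterozygous pools of both baths and the wildtype controls. Hspb1, a small heat shock protein, was at 63.6 to 95.6 in every heat pool against 15.2 to 20.0 in the controls that had a value. Hspa1a, the inducible Hsp70, was not uniform among heat pools, at 0.881 to 122 in wildtype and 1.79 to 121 in null ones. All heterozygous heat pools were low, at 1.51 to 2.12, against 0.488 to 0.807 in the heterozygous controls. No probe carried the symbol Trp53. The heterozygous control pools A and B differed from C and D in their highest value, 209 and 181 against 328 and 329. A score for this split was computed over 18286 probes without the 6 genes. By its construction it was high in A and B, at 0.467 and 0.574, and low in C and D, at -0.526 and -0.433. It ran from 0.06 to 0.42 in wildtype controls and from -0.61 to -0.24 in null controls.

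The 6 genes had the low null controls in common, and 5 of them also high null heat pools. The null control pools had the lowest mean of the 6 groups in every gene, and the null heat pools the highest mean in all but Pcyt2. From control to heat the null pools were 1.97-fold to 2.39-fold higher, whereas the wildtype pools were 1.13-fold to 1.65-fold lower. Intensities carry the arrays' own relative unit and were quantile normalized, pools are given in the order A to D, and log2 differences are given ± SE.

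**Figure D1:**
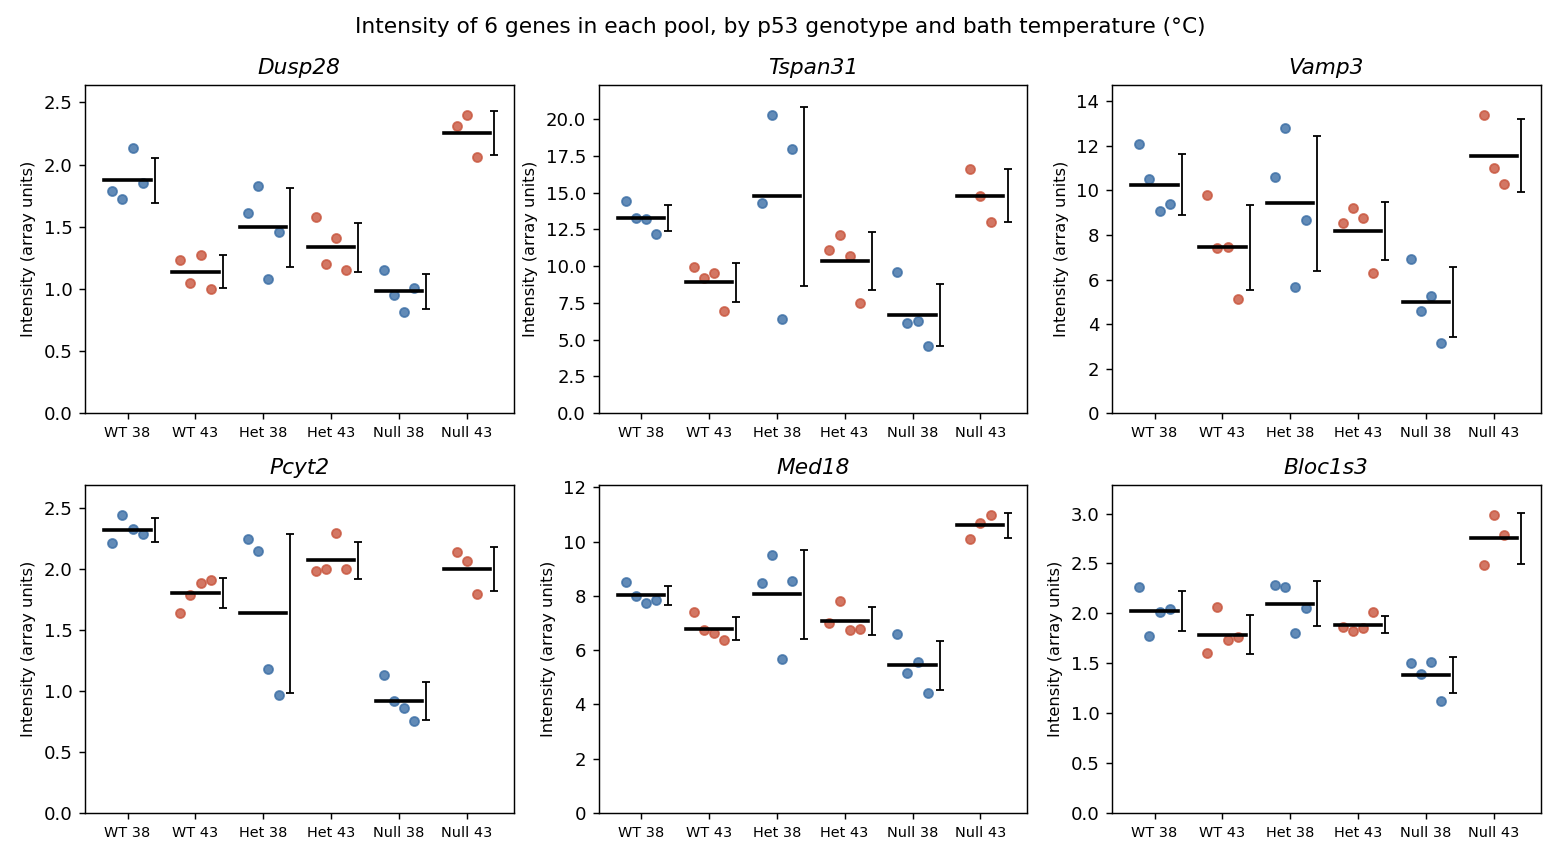
Intensity of the 6 genes in each pool (points, array units, vertical axis from 0), for wildtype (WT), heterozygous (Het) and null pools at 38 °C (blue) and 43 °C (red). Horizontal lines are group means and bars at their right are SDs (n = 4, null 43 °C n = 3). The null control mean is the lowest in every panel, and the heterozygous controls have the largest SD in all but Bloc1s3.

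Of the membrane traffic genes, Vamp3 was at 12.1, 10.5, 9.08 and 9.38 in the wildtype control pools and at 9.78, 7.41, 7.47 and 5.11 in the wildtype heat pools. In null embryos it was at 6.93, 4.59, 5.24 and 3.16 in the control pools and at 13.4, 11 and 10.3 after heat. The heterozygous pools held 10.6, 12.8, 5.65 and 8.68 in the control and 8.52, 9.22, 8.76 and 6.29 after heat. The null heat pools lay above all null control pools and above all wildtype heat pools, and overlapped the wildtype control pools. Wildtype control and heat pools overlapped through heat pool A, and heterozygous control pool C fell within the range of the null controls. The heat response was -0.49 ± 0.23 in wildtype, -0.15 ± 0.23 in heterozygous and 1.26 ± 0.25 in null pools.

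Bloc1s3 was at 2.26, 1.77, 2.01 and 2.04 in wildtype control pools and at 1.60, 2.06, 1.73 and 1.76 in wildtype heat pools. The null control pools were at 1.5, 1.39, 1.51 and 1.12 and the null heat pools at 2.48, 2.99 and 2.78. Heterozygous pools were at 2.28, 2.26, 1.80 and 2.05 in the control and at 1.86, 1.82, 1.85 and 2.01 after heat. Here the null pools stood apart on both sides: every null control pool was below every other pool, and every null heat pool was above every other pool. Wildtype and heterozygous pools overlapped in both baths. The heat responses of -0.17 ± 0.11 in wildtype and -0.15 ± 0.11 in heterozygous pools were small beside 1.0 ± 0.12 in null pools.

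Tspan31 was at 14.4, 13.3, 13.2 and 12.2 in the wildtype controls and at 9.94, 9.18, 9.52 and 6.94 in the wildtype heat pools, without overlap. In null pools it was at 9.61, 6.14, 6.27 and 4.59 in the control and at 16.6, 14.8 and 13.0 after heat. The heterozygous control pools were at 14.3, 20.3, 6.38 and 18.0, and the heterozygous heat pools at 11.1, 12.1, 10.7 and 7.48. Its heterozygous controls spanned more than all other groups together, with B and D above every null heat pool and C at the level of the null controls. The heat response was -0.59 ± 0.26 in wildtype, -0.41 ± 0.26 in heterozygous and 1.20 ± 0.28 in null pools.

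Pcyt2, the lipid enzyme, was at 2.22, 2.45, 2.33 and 2.29 in the wildtype controls and at 1.64, 1.79, 1.89 and 1.91 in the wildtype heat pools. The null controls were at 1.13, 0.921, 0.865 and 0.755 and the null heat pools at 2.14, 2.07 and 1.80. Heterozygous control pools were at 2.25, 2.15, 1.18 and 0.971, and heterozygous heat pools at 1.99, 2, 2.30 and 2. After heat the null pools overlapped both the wildtype and the heterozygous pools, which did not overlap each other, so the null heat pools were not above the rest as in the other 5 genes. Its heterozygous controls fell into a pair near the wildtype level, A and B, and a pair near the null level, C and D. It was the only one of the 6 with a heterozygous heat response above 0, 0.43 ± 0.19, between -0.36 ± 0.19 in wildtype and 1.14 ± 0.21 in null pools.

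Med18, the Mediator subunit, was at 8.52, 7.98, 7.75 and 7.85 in the wildtype controls and at 7.42, 6.73, 6.65 and 6.39 after heat. The null controls were at 6.61, 5.14, 5.58 and 4.43 and the null heat pools at 10.1, 10.7 and 11. Heterozygous pools were at 8.48, 9.50, 5.67 and 8.56 in the control and at 6.99, 7.82, 6.74 and 6.77 after heat. All null heat pools were above all other 20 pools, and the wildtype heat pools were just below the wildtype controls. The heat response was -0.24 ± 0.13 in wildtype, -0.16 ± 0.13 in heterozygous and 0.98 ± 0.14 in null pools.

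Dusp28, the phosphatase, was at 1.79, 1.72, 2.13 and 1.85 in the wildtype controls and at 1.23, 1.05, 1.27 and 0.997 in the wildtype heat pools. The null controls were at 1.15, 0.948, 0.814 and 1.01 and the null heat pools at 2.31, 2.40 and 2.06. Heterozygous pools were at 1.61, 1.83, 1.08 and 1.46 in the control and at 1.58, 1.20, 1.41 and 1.15 after heat. Dusp28 had the most opposed responses of the 6, with -0.72 ± 0.15 in wildtype against 1.21 ± 0.16 in null pools. The heterozygous response was -0.15 ± 0.15, and wildtype heat pools overlapped the null controls.

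**Figure D2:**
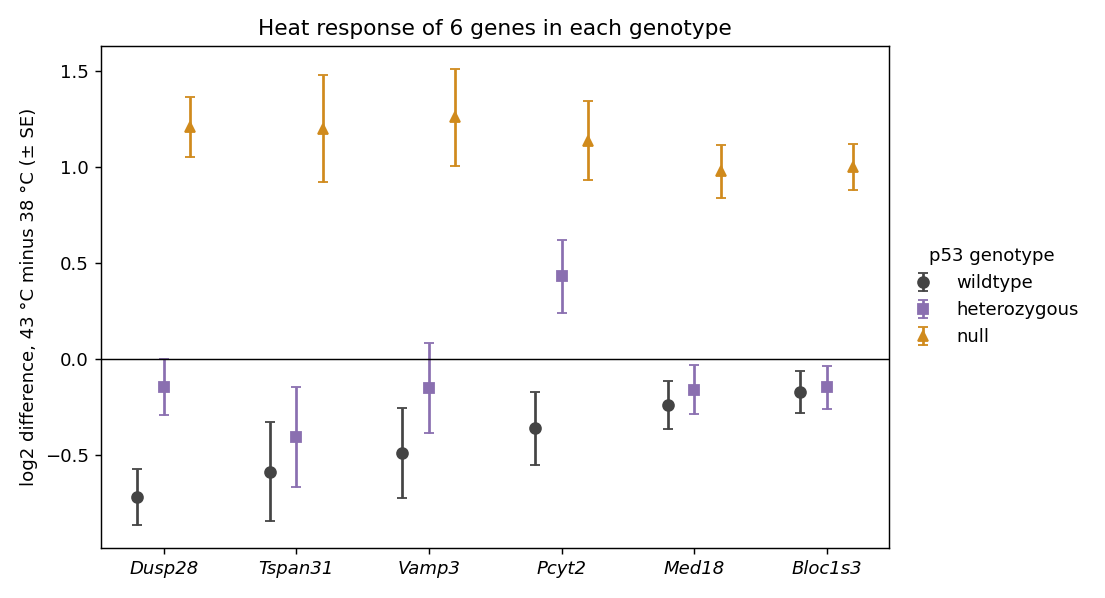
Heat response (43 °C minus 38 °C, log2, ± SE) of each gene in wildtype (circles), heterozygous (squares) and null pools (triangles). The null responses lie between 0.98 and 1.26, the wildtype responses between -0.72 and -0.17.

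The sign of the heat response was opposite between null and wildtype pools in 6 of 6 genes. In wildtype pools, however, the 95% intervals of Pcyt2 (-0.76 to 0.03), Med18 (-0.51 to 0.02) and Bloc1s3 (-0.41 to 0.06) included 0. The median was 1.17 in null pools and -0.43 in wildtype pools, beside medians over all tested probes of -0.01 and 0.04. In heterozygous pools 5 of 6 were below 0, with a median of -0.15 beside 0.04 over all probes, and the 95% intervals of those 5 all included 0. Wildtype control and heat pools did not overlap in 4 of the 6, Dusp28, Tspan31, Pcyt2 and Med18, with control higher, as for 4.62% of all tested probes. Null heat pools lay above null control pools in 6 of 6, as for 10.8% of all probes. These counts follow from the choice of the genes and say nothing more.

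The difference between the heat responses of null and wildtype pools splits exactly into 2 parts, a control difference and a heat difference, each null minus wildtype. Dusp28 had the largest, 1.93 ± 0.21, made of a control difference of -0.94 ± 0.15 and a heat difference of 0.99 ± 0.16. For Tspan31 1.79 ± 0.38 split into -1.05 ± 0.26 and 0.74 ± 0.28, and for Vamp3 1.75 ± 0.35 into -1.09 ± 0.23 and 0.66 ± 0.25. In these membrane proteins the control pools held the larger share, 58.5% and 62.2%. For Pcyt2 the split was lopsided: of 1.5 ± 0.28, the control pools gave -1.35 ± 0.19, or 90.1%, and the heat pools 0.15 ± 0.21. For Med18 1.22 ± 0.19 split nearly evenly into -0.58 ± 0.13 and 0.64 ± 0.14, and for Bloc1s3 1.17 ± 0.16 into -0.55 ± 0.11 and 0.62 ± 0.12. Thus in every gene the null control pools were 1.47-fold to 2.56-fold below wildtype, and in all but Pcyt2 the null heat pools were 1.54-fold to 1.99-fold above.

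Wildtype control pools lay above null control pools without overlap in 6 of 6, as for 11.4% of tested probes, and null heat above wildtype heat pools in 5 of 6, as for 5.51%. Among the 21979 tested probes, ordered by this difference between responses, the 6 stood at ranks 6 (Dusp28), 15 (Tspan31), 17 (Vamp3), 47 (Pcyt2), 154 (Med18) and 205 (Bloc1s3). Like the counts before, these counts and ranks follow from the choice of the genes.

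**Figure D3:**
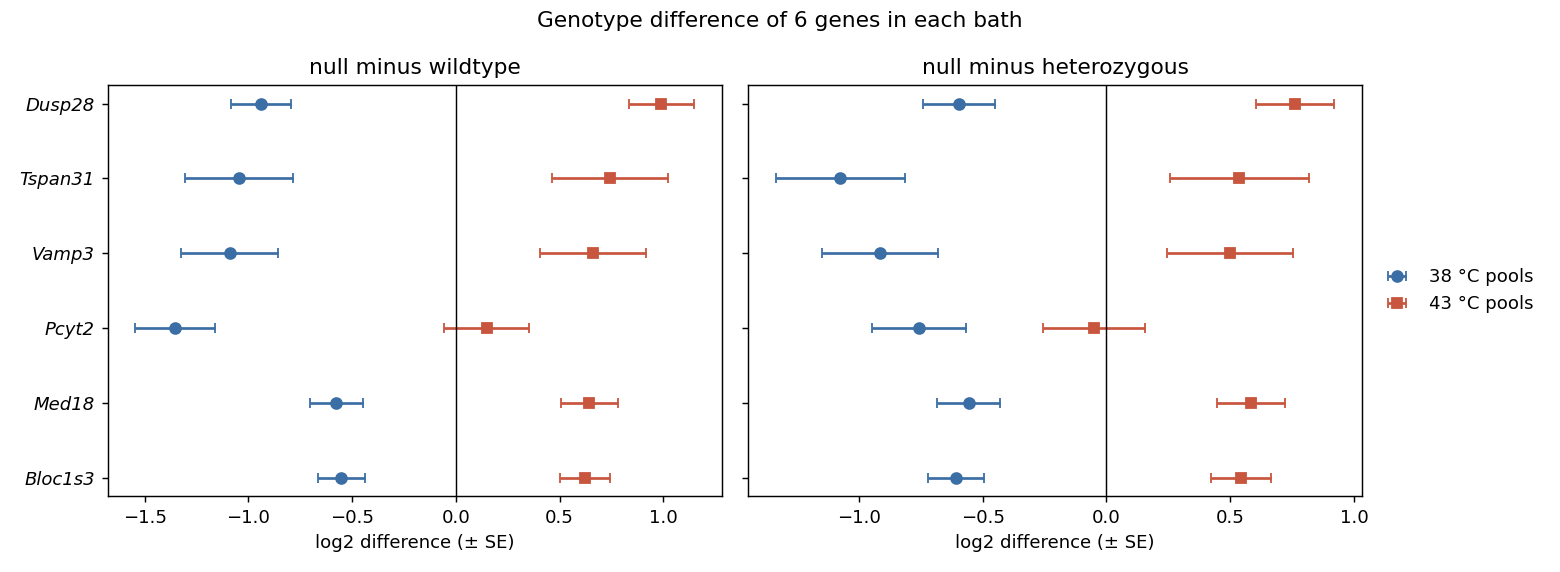
Genotype difference of each gene (log2, ± SE) among the 38 °C pools (blue circles) and the 43 °C pools (red squares), null minus wildtype at left and null minus heterozygous at right. The control differences are below 0 for all 6 genes, and the heat differences are above 0 for all but Pcyt2 against heterozygous pools.

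Against heterozygous pools, which share the null pools with the comparison above, the differences between heat responses were smaller for each gene. They ran from 1.61 ± 0.38 for Tspan31 and 1.41 ± 0.35 for Vamp3 to 0.71 ± 0.28 for Pcyt2. Dusp28 was at 1.36 ± 0.21, and Med18 and Bloc1s3 at 1.14 ± 0.19 and 1.15 ± 0.16. The control part was the larger in 4 of 6, Tspan31, Vamp3, Pcyt2 and Bloc1s3. For Pcyt2 the heat part was -0.05 ± 0.21, so the whole difference lay in the control pools. Null heat pools were above heterozygous heat pools without overlap in 5 of 6, all but Pcyt2, beside 1.83% of all probes. The choice of the genes favours this count too. In the control bath only Bloc1s3 had heterozygous pools all above the null ones, 1 of 6 beside 3.11% of all probes, while in the other genes pool C, or for Pcyt2 pool D, fell within the null range.

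Heterozygous and wildtype pools were closer to each other. The difference between their heat responses was 0.79 ± 0.27 for Pcyt2 and 0.57 ± 0.21 for Dusp28, and 0.02 to 0.34 in the other genes, within about 1 SE. For both genes the larger part was in the control pools, at -0.60 ± 0.19 and -0.34 ± 0.15, with heterozygous pool C low for both genes and pool D low for Pcyt2.

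The heterozygous controls had the largest SD of the 6 groups in all genes but Bloc1s3. Pool C was below its group mean in 6 of 6 and pool D in 4 of 6, while A and B were above it in 6 of 6. For Tspan31 and Med18 pool D was above the mean. The array score, which did not use these genes, is low in C and D by construction, and was low in the null controls too. With the score as a covariate, the null minus wildtype control difference went from -1.05 to -0.55 for Tspan31, from -1.09 to -0.56 for Vamp3 and from -0.58 to -0.36 for Med18. It went from -1.35 to -0.92 for Pcyt2, from -0.94 to -0.69 for Dusp28 and from -0.55 to -0.42 for Bloc1s3. The null heat response went from 1.20 to 0.76 for Tspan31, from 1.26 to 0.80 for Vamp3 and from 1.14 to 0.76 for Pcyt2, and lay at 0.79 to 0.99 in the other 3. The differences between the null and wildtype heat responses were lower too, at 1.01 to 1.69 in place of 1.17 to 1.93. The heat differences, at 0.16 to 1.0, hardly moved. The score ran from -0.06 to 0.30 in wildtype heat and from -0.29 to 0.43 in null heat pools, with similar means. That left the covariate little to shift, so this is no check of the heat differences. Against heterozygous pools the Pcyt2 difference between responses went from 0.71 to 0.33. The part of the array score in the control differences was not tested.

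**Figure D4:**
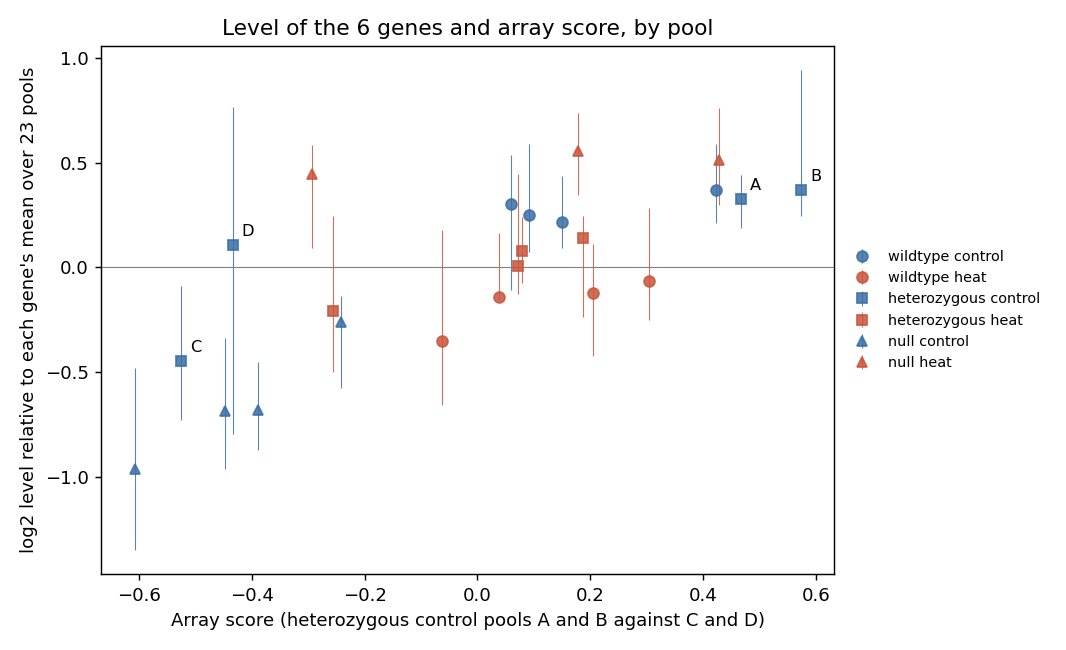
Median log2 level of the 6 genes in each of the 23 pools, each gene relative to its mean over all pools (points; bars run from the lowest to the highest of the 6 genes), against the array score of the split among heterozygous control pools (letters). The null controls, at -0.96 to -0.26, and heterozygous control C, at -0.45, lie low with low scores. Heterozygous control D, with a score of -0.43, does not lie low, at 0.11. The 3 null heat pools lie at 0.45 to 0.56 at scores from -0.29 to 0.43.

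Whether the genotypes differed in overall level was tested, as the choice of the genes did not use it. This is the genotype difference averaged over both baths, with weights of 0.538 for control and 0.462 for heat that leave it without covariance with the difference between heat responses. In this average Pcyt2 was lower in null than in wildtype pools, by -0.66 ± 0.14 (limma, adjusted p = 0.02). It was the only call: 1 of 6, beside 6.65% of all tested probes. The value came from the control bath, at -1.35 ± 0.19, while the heat difference of Pcyt2 was 0.15 ± 0.21. The other 5 lay between -0.28 ± 0.17 for Vamp3 and -0.01 ± 0.08 for Bloc1s3, with limma adjusted p-values from 0.32 to 0.96. The Pcyt2 call was lost with the array score as a covariate (-0.42 ± 0.11, limma adjusted p = 0.068), without null control pool C (-0.58, limma adjusted p = 0.051) and without null control pool D (-0.55, limma adjusted p = 0.059). It held under the other 11 settings and with each of the other 21 pools left out, with limma adjusted p-values of 0.00052 to 0.029 over those 11 settings.

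Between heterozygous and wildtype pools 0 of 6 were called by limma, beside 0.0136% of all probes, and 0 had an unadjusted p under 0.05. Between null and heterozygous pools 0 of 6 were called, beside 0.0182%. There 1, Pcyt2, had an unadjusted p under 0.05, at -0.43 ± 0.14 (limma, adjusted p = 0.49).

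The 6 genes varied together also inside the groups. Across the 23 pools Pearson's r between 2 of them ran from 0.62 (Tspan31 and Pcyt2) to 0.94 (Tspan31 and Vamp3), with a median of 0.78 over 15 pairs. After each pool's group mean was taken off, r ran from 0.15 (Dusp28 and Bloc1s3) to 0.90 (Tspan31 and Med18), with a median of 0.52. Tspan31, Vamp3 and Med18 held together most closely, at 0.85 to 0.90 within groups. These values are a description, as the pools share groups and array scores and no values for other pairs of genes stand beside them. The values across the 23 pools also follow in part from the choice of the genes for a shared pattern.

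The genes most like each member across the 23 pools were often other members, which the choice of the genes for a shared pattern favours. Decr2, a reductase of peroxisomal fatty acid oxidation, had r = 0.93 with Tspan31 and 0.91 with Med18. Its heat response was -0.32 in wildtype and 1.08 in null pools. Resf1 was nearest to Vamp3 after Tspan31 (r = 0.93), with responses of -0.32 and 1.69. Tasor, a subunit of the HUSH silencing complex, had r = 0.83 with Dusp28 and 0.82 with Bloc1s3, and Rad1, a subunit of the 9-1-1 DNA damage checkpoint clamp, 0.85 with Bloc1s3. Pcyt2 had neighbours of its own: Slc31a2 (r = 0.93), a copper transporter, St3gal2 (0.93), a sialyltransferase, and Sec14l1 (0.92).

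Of the genes next to the 6 on the chromosome 9 were tested, and none was called. Cdk4, the G1 kinase whose gene overlaps Tspan31, had a difference between null and wildtype heat responses of 0.29 ± 0.33 (limma, adjusted p = 0.60), against 1.79 for Tspan31. Trappc6a, beside Bloc1s3, was at 0.15 ± 0.13, and Sirt7, beside Pcyt2, at -0.25 ± 0.15. Sesn2, a p53 target beside Med18, had a value of the opposite sign, -0.98 ± 0.28 (limma, adjusted p = 0.09).

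Genes that share a complex, pathway or family with the 6 genes were taken from 6 lists. They were examined for the same difference between null and wildtype heat responses. Of 94 listed genes 78 were tested: 1 was higher in null, beside 0.296% of all tested probes, and 0 were lower, beside 0.737%. Their median was 0.15, beside -0.04 over all probes, with 49 of 78 above 0. The 1 call was Snap23, the SNARE of the plasma membrane that pairs with Vamp3 in fusion, at 0.68 ± 0.16 (limma, adjusted p = 0.047). Its control difference was -0.37 and its heat difference 0.31, and the other 13 SNAREs tested were not called. The Snap23 call was lost with the array score as covariate (limma, adjusted p = 0.11), with a replicate block (limma, adjusted p = 0.064) and with only the 2 genotypes fitted (limma, adjusted p = 0.052). It was also lost with 18 of the 23 pools left out in turn, and held only without wildtype heat A, heterozygous control B, C or D, or null control A.

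None of 10 tested genes of the Mediator head was called, and Med20 (0.44 ± 0.15) and Med28 (0.41 ± 0.19) had the smallest p-values. Of 7 BLOC-1 genes none was called. Bloc1s6, or pallidin, was at 1.11 ± 0.35 (limma, adjusted p = 0.11), near Bloc1s3 itself, with heat responses of -0.55 in wildtype and 0.55 in null pools. Snapin was at 0.69 ± 0.24 (limma, adjusted p = 0.13). Among 10 genes of phosphatidylethanolamine and phosphatidylcholine synthesis none was called. Etnk1, the ethanolamine kinase upstream of Pcyt2, was at -0.45 ± 0.19, and Cept1, a transferase downstream of it, at 0.51 ± 0.22. Of 25 tetraspanins none was called, with Tspan13 at 0.52 ± 0.15 (limma, adjusted p = 0.086) and Tspan8 at 0.89 ± 0.27 (limma, adjusted p = 0.097). Of 12 atypical dual specificity phosphatases none was called by its brightest probe, and Dusp14 was at 0.45 ± 0.18 and Dusp19 at 0.36 ± 0.14. The probes of Dusp3 disagreed, at -0.24 ± 0.20 for the brighter and 1.07 ± 0.23 (limma, adjusted p = 0.026) for the other, a gene singled out after its values were seen.

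**Figure D5:**
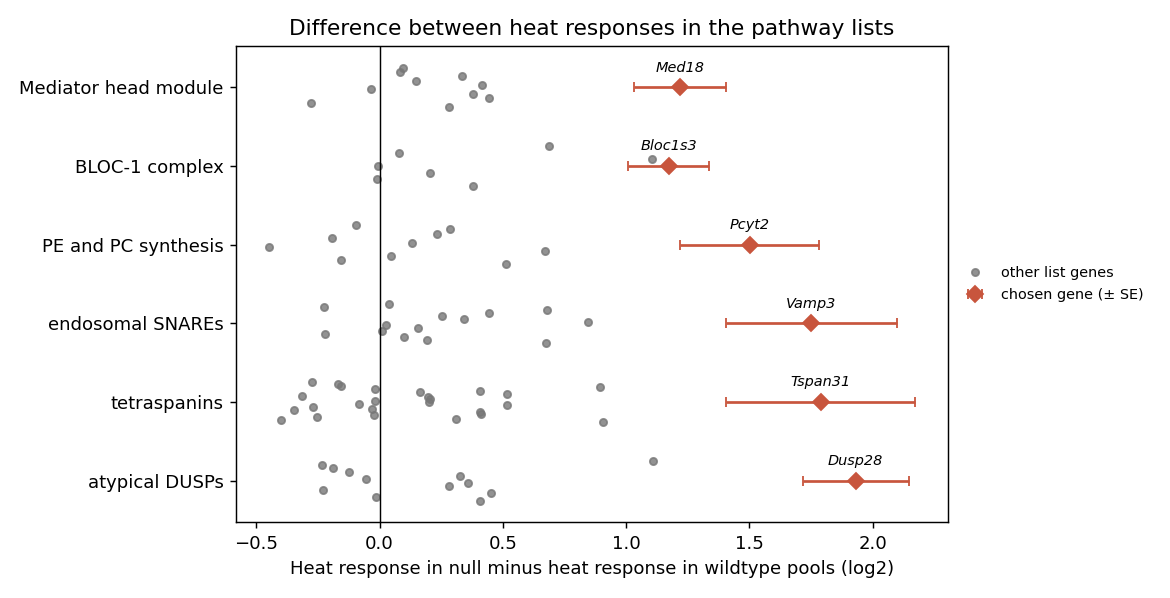
Difference between the heat responses of null and wildtype pools (log2) for the chosen gene of each list (diamonds, ± SE) and the other tested genes of that list (grey points, without error bars; vertical offsets only separate them). PE and PC are phosphatidylethanolamine and phosphatidylcholine. The other genes lie from -0.45 to 1.11, and the chosen genes, picked for this value, from 1.17 to 1.93.

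Markers of tissues in the pools were set beside these comparisons. All 8 yolk sac and visceral endoderm markers had lower means in the null than in the wildtype controls (median difference -0.35) and higher ones in null than in wildtype heat pools (median 0.55), and 0 of 8 were called in the difference between responses by limma. Their summed level was 149 to 210 in wildtype controls, 92.4 to 175 in null controls, 90.3 to 207 in wildtype heat and 136 to 187 in null heat pools. In heterozygous pools it was 88.5 to 181 in the control and 160 to 245 after heat. Of 5 tested markers of primitive red cells 1 was called, Epor, the erythropoietin receptor, at 1.28 ± 0.29 (limma, adjusted p = 0.04). Of all tested probes 0.296% were called higher in null in this difference. The summed level of the red cell markers was 113 to 187 in wildtype controls, 112 to 162 in null controls, 78.8 to 190 in wildtype heat and 136 to 141 in null heat pools. Of the neural tube (6 tested), heart muscle (4), somite (6) and trophoblast (3) markers none was called in the difference between responses. In the difference averaged over both baths, limma called Klf1 of the red cell list (-0.58 ± 0.16), Pax6 of the neural tube (0.53 ± 0.10) and Meox1 (0.49 ± 0.12) and Meox2 (0.44 ± 0.13) of the somite. Of all tested probes 6.65% were called in that difference. In the control difference it called Klf1 (-1.08), Epor (-0.89), Otx2 (-0.95) and Pax6 (0.50), beside 8.55% of all probes. The part of these markers in the results for the 6 genes was not tested.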

How the data were processed

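Whole-embryo RNA was hybridised to CodeLink 1-colour arrays, and the deposited values are linear intensities per probe, made by the authors; the sources used here do not give scanner, background step or normalization. Empty cells and the code -9999 counted as missing. Each array's 5th percentile of positive values served as its floor, log2 was taken, and probes with at least 3 values in each group were quantile normalized. A probe that also exceeded the 40th percentile of 3 or more arrays was tested. Group means of the 23 arrays were fitted with limma 3.58.1 (intensity trend) in R 4.3.3, with Benjamini-Hochberg adjustment over 21979 probes and a threshold of 0.05; the fit was checked on simulated data. The limma p-values are two-sided. Gene symbols are those of GEO's annotation of the platform, brought up to date through RefSeq: 21615 probes have 1 symbol, 681 several and 13931 none listed. A list gene stands by its brightest tested probe; a list's calls are named, or its 2 genes of smallest p, and for each member the 3 genes of highest r. Members and lists were chosen with earlier results of these data known. The number of arrays limits the precision.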

Additional observations from a re-analysis of the deposited data

Results flagged for a closer look

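In 1 of the 30 groups of 4 pools tested over the 6 genes, a pool lay far from the others, where chance gives about 1 in 20: heterozygous heat pool C had a Pcyt2 intensity of 2.3, against 1.99 to 2 in the other 3. Snap23 differed between null and wildtype pools in its heat response, by 0.68 on the log2 scale (limma, adjusted p = 0.047), with limma adjusted p-values of 0.017 to 0.11 over 12 other settings.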

How the results depend on the processing

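The null minus wildtype heat, control and heat response differences of the 6 genes kept their sign under 12 settings and without each of 23 pools. The choice of the genes on these same pools favours that, so it is no separate support. With the array score as a covariate their control and heat response differences were smaller, as given above. With the array score as a covariate 0 of the 6 were called for the average null against wildtype difference (0 to 1 with 1 pool left out). Over all probes that count, 1461, was 2356 with array weights, 101 with the array score, 2320 with only the 2 genotypes, and 162 (without null control D) to 3115 (without null heat A) with 1 pool left out. For heterozygous against wildtype, 3 became 8 on the values as deposited and with array weights, 21 with the highest value of each array as covariate and 11 with the array score (1 to 11 with 1 pool left out), and for null against heterozygous, 4 ran from 3 to 6. For the difference between null and wildtype heat responses 227 probes became 650 as deposited, 402 with median centring, 77 with the array score and 378 with 2 genotypes, and ran from 8 (without null heat B) to 345 (without heterozygous control B). The list genes called went from 1 to 5 as deposited, 2 with median centring and 0 with the array score (0 to 1 with 1 pool left out). Pool letters were not taken as pairs in the main fit, though same-letter correlations were somewhat higher than those between letters. Those of the same letter ran from -0.36 to 0.68, with 27 of 55 above 0.1 and a median of 0.08, against 50 of 165 and -0.04 between letters. With a replicate block 3224 probes were called for null against wildtype in place of 1461, 54 for heterozygous against wildtype in place of 3, and 0 list genes.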
